A study of Neurospora crassa with 24 samples.

Results

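The genes of the *Neurospora crassa* velvet proteins and their methyltransferase partner are *ve-1* (NCU01731), *ve-2* (NCU02775), *vos-1* (NCU05964) and *lae-1* (NCU00646). They were chosen by identifier, as 4 of the 9758 genes counted, and were followed in all 24 RNA-seq libraries. All 4 were present in the counts, and all 4 passed the filter on low counts in every comparison. In the Δ*ve-1* mutant, *lae-1* mRNA was higher than in the wild type in all 5 conditions and *vos-1* mRNA was lower in 4 of them. No difference between the strains was called for *ve-2*, and a small number of reads was still counted for *ve-1* in every mutant library.

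Velvet proteins are fungal regulators that share the velvet domain, a fold for DNA binding and for pairing with other velvet proteins. In *Aspergillus nidulans*, the light-sensitive regulator VeA brings its partner VelB into the nucleus, where they bind LaeA, a putative methyltransferase that controls secondary metabolism, and the related VosA acts in spores. The *N. crassa* counterparts are VE-1, VE-2, LAE-1 and VOS-1. VE-1, VE-2 and LAE-1 form a complex in hyphae, and VOS-1 binds VE-1 and VE-2. In this mold, the complex is known for its part in sexual development, aerial growth, conidiation and carotenoid accumulation.

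The 2 strains were the Δ*ve-1* mutant and its control, the wild type, both in the OR74A background. Submerged vegetative mycelia were grown in plates of Vogel's liquid medium for 48 h (V), in the dark or with white light for the last 30 min, with 2 libraries for each strain and light condition. For S, mycelia were submerged in shaken flasks of the same medium for 24 h without light, with 4 libraries per strain. Aerial tissue (A15) was collected 15 h after the mycelia were moved to solid medium to induce conidiation, either entirely in the dark or with white light during the last 30 min, with 2 libraries for each strain and light condition. The labels give 22°C for all 24 libraries, whereas the methods of the study give a higher temperature for S and A15. The mutant is labelled as a deletion of *ve-1*, and no second mutant strain was used, so that other differences between it and the wild type cannot be told apart from the deletion. The methods of the study speak in general of independent biological replicates for RNA quantification, and the labels do not say which libraries came from separate cultures, so *P* values measure the spread between these libraries. In bulk RNA, fewer cells that transcribe a gene and less mRNA per cell cannot be told apart.

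Totals ranged from 14010994 to 21885041 counts per library (median 16040218.5). A floor of 3 counts, taken as the smallest amount this depth can show, was 0.137 to 0.214 CPM of the unscaled totals. The CPM values below are scaled between libraries, and there 3 *vos-1* counts in replicate 4 of wild-type S were 0.241 CPM. This floor covers counting error only. Among markers of conidiating tissue, the hydrophobin gene *eas* and *con-8* were higher in all A15 libraries than in all V and S libraries, whereas *con-6* and *con-10* overlapped with light-exposed V. The light markers *al-1* and *vvd* were higher in all light libraries than in all dark libraries of V and of A15. Within S of the mutant, replicate 1 stood apart, with a median correlation of 0.924 with its own group (0.965 to 0.973 for the other 3 replicates). It was not the lowest value of the series. The libraries of dark A15 of the mutant correlated with each other at 0.922, and those of light A15 of the wild type at 0.944. The values were 0.986 in light A15 of the mutant and 0.981 in dark A15 of the wild type. All these libraries are kept in the results. For replicate 1 of the mutant in S, the values without it are given where it matters.

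*ve-1* lies on the plus strand of chromosome II at 2607929 to 2611456 (NC12 assembly), *ve-2* on the minus strand of chromosome I at 9233545 to 9236639, *vos-1* on the minus strand of chromosome VI at 3287408 to 3290173 and *lae-1* on the plus strand of chromosome I at 7714560 to 7717622. *ve-1*, *ve-2* and *lae-1* overlapped no other gene in the counts, the nearest genes being 2549, 390 and 405 bp away. *vos-1* overlaps NCU05965, on the opposite strand, by 197 bp. The counting took the strand of the reads into account, and whether reads of NCU05965 entered the *vos-1* counts was not tested. mRNA levels are given as CPM, the counts of a gene as a share of all counts of the library, scaled over the 24 libraries with the TMM method of edgeR, which adjusts library sizes to the bulk of the genes. The log2FC values, with their standard errors (SE), come from edgeR fits of the libraries of each experiment. A change was called at an adjusted *P* value under 0.05, over all genes tested, and the stricter threshold of the study for differentially expressed genes (DEGs, with a log2FC of 2 or more in either direction and adjusted *P* under 0.001) is mentioned where it was met.

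**Figure D1:**
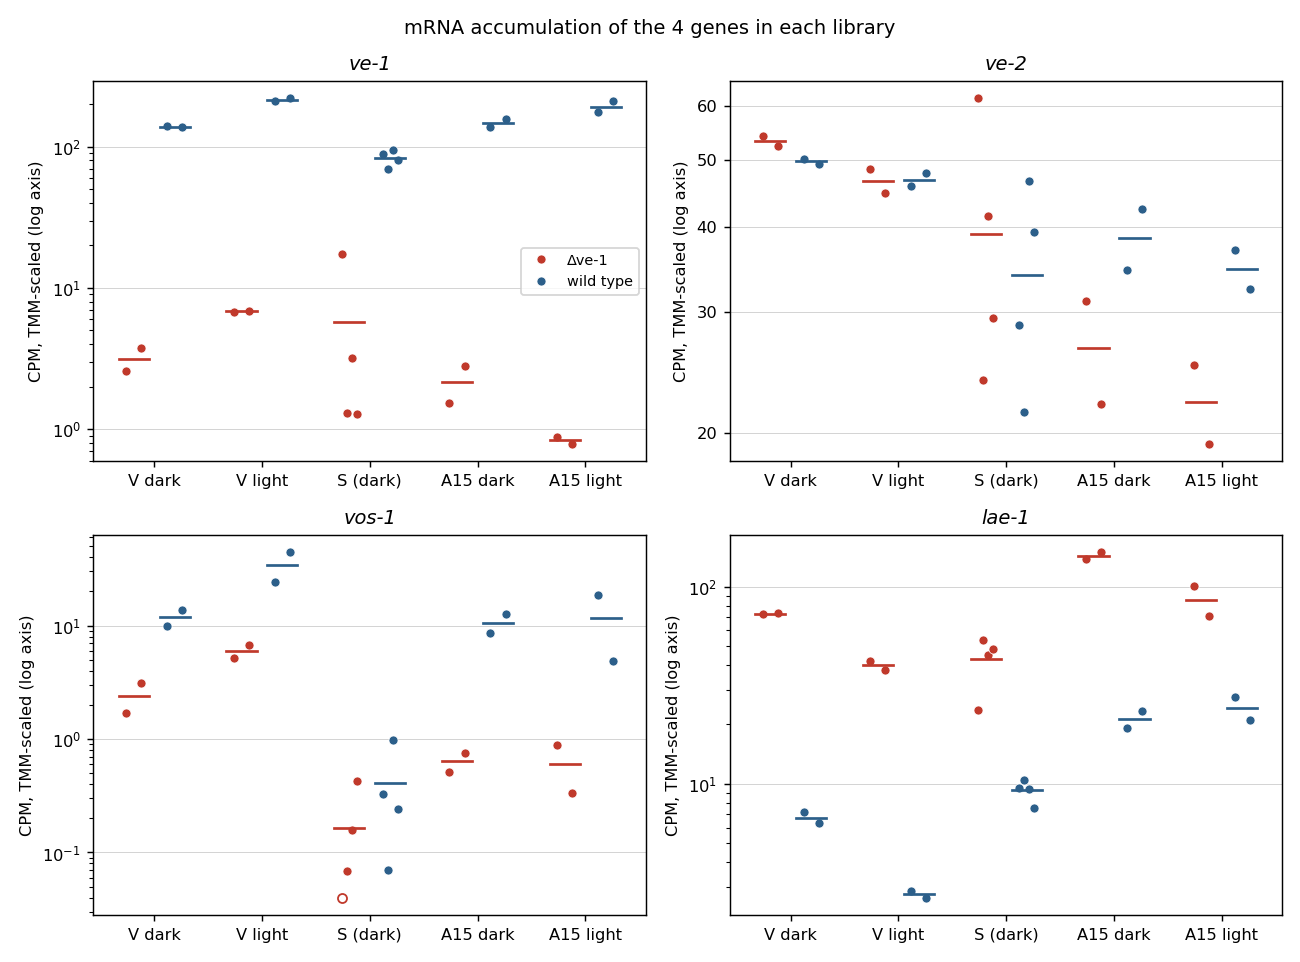
mRNA accumulation of *ve-1*, *ve-2*, *vos-1* and *lae-1* in CPM, on log axes that differ between panels, with a point for each library and a line at the mean of each group (Δ*ve-1* in red to the left of the wild type in blue; 4 libraries per group in S and 2 elsewhere). The open point marks the mutant library in S without *vos-1* reads and is drawn below the scale. The *lae-1* points of the mutant lie above those of the wild type in all 5 conditions, and the *ve-2* points of the strains overlap in V light and S.

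The deleted gene was examined first. *ve-1* reads were at 2.58 and 3.73 CPM in dark V of the mutant, against 139 and 137 CPM in the wild type. After light, they were at 6.79 and 6.92 CPM in V of the mutant, against 209 and 220 CPM in the wild type. Each mutant library of V was thus far below each wild-type library, and the log2FC was −5.44 (SE 0.18, adjusted *P* = 1.37e-06) in the dark and −4.95 (SE 0.17, adjusted *P* = 1.81e-06) after light. In A15, the mutant had 1.53 and 2.82 CPM in the dark, against 139 and 156 CPM in the wild type, and 0.878 and 0.787 CPM after light, against 175 and 210 CPM. The log2FC was −6.09 (SE 0.44, adjusted *P* = 0.00231) in dark A15 and −7.91 (SE 0.49, adjusted *P* = 0.000647) after light. The residual reads numbered 14 to 123 in a mutant library of V or A15. The counts are per gene, and the position of these reads within *ve-1* is not known. *ve-1* passed the DEG threshold of the study in both V comparisons and in A15 light. Without replicate 2 of the wild type in dark A15, the call there was lost (adjusted *P* = 0.0503).

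In S, the mutant had 17.4, 1.31, 3.18 and 1.28 CPM of *ve-1* in replicates 1 to 4, against 88.3, 69.2, 94.0 and 80.9 CPM in the wild type. Replicate 1 held 215 *ve-1* reads, the other 3 mutant replicates 18 to 40. The groups did not overlap. The log2FC was −3.82 (SE 0.69, adjusted *P* = 0.0169), and the exact two-sided permutation test of log2 CPM over 4 against 4 libraries gave *P* = 0.0286, the smallest it can give. Without replicate 1 of the mutant, the log2FC was −5.45 and was still called. The call was lost without replicate 3 of the mutant (adjusted *P* = 0.0764) and when S was fitted by itself (adjusted *P* = 0.0871). Replicate 1 also had the highest CPM among the mutant S libraries of the methyltransferase genes NCU10101 (179 CPM) and NCU10761 (209 CPM). These genes varied widely over the mutant S libraries, from 10.9 and 37.6 CPM upward, and reached at most 0.704 and 3.75 CPM in the wild type. The *lae-1* level of replicate 1 (23.8 CPM) was the lowest of the mutant S libraries. What sets replicate 1 apart was not tested.

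*ve-2*, which encodes the velvet protein that pairs with VE-1, had similar mRNA levels in the strains in V. In the dark, the mutant had 54.2 and 52.5 CPM, against 50.3 and 49.4 CPM in the wild type, and after light 48.5 and 44.8 CPM, against 45.8 and 47.9 CPM. The log2FC was 0.09 in the dark (95% confidence interval −0.15 to 0.33) and 0.01 after light (−0.24 to 0.25). In S, the mutant had 61.6, 23.9, 41.5 and 29.4 CPM, against 28.8, 21.5, 46.6 and 39.3 CPM in the wild type, groups that overlapped (log2FC 0.21, interval −0.49 to 0.90). The 61.6 CPM were those of replicate 1 of the mutant, and without it the log2FC was −0.13. In A15, the mutant levels were the lower ones. They were 31.2 and 22.0 CPM in the dark, against 34.5 and 42.5 CPM in the wild type, and 25.1 and 19.3 CPM after light, against 37.0 and 32.4 CPM. Neither difference was called (log2FC −0.55 in the dark, adjusted *P* = 0.390, and −0.71 after light, adjusted *P* = 0.233). The interval after light ran from −1.42 to −0.00236, just below 0.

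*vos-1* encodes another velvet protein, whose *A. nidulans* counterpart VosA acts in the maturation of spores. Its mRNA was lower in the mutant in V and A15. In dark V, the mutant had 1.68 and 3.11 CPM, against 9.91 and 13.8 CPM in the wild type. After light, it had 5.18 and 6.80 CPM, against 24.4 and 44.5 CPM. The strains did not overlap, and the log2FC was −2.28 (SE 0.38, adjusted *P* = 0.00730) and −2.51 (SE 0.35, adjusted *P* = 0.00313), or 4.86-fold and 5.69-fold lower. In A15, the mutant had 0.510 and 0.758 CPM in the dark, against 8.60 and 12.6 CPM in the wild type. After light, it had 0.878 and 0.337 CPM, against 18.6 and 4.88 CPM. The 2 wild-type libraries of A15 light thus differed widely, but both were above both mutant libraries. The log2FC was −4.07 (SE 0.75, adjusted *P* = 0.0353) in the dark and −4.31 (SE 0.75, adjusted *P* = 0.0265) after light, or 16.8-fold and 19.8-fold lower. The mutant values in A15 rest on 6 to 17 reads per library.

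The *vos-1* calls rested on few libraries. In dark V, the call was lost without replicate 1 of the mutant (adjusted *P* = 0.0595) or replicate 2 of the wild type (0.0629). In A15, it was lost without replicate 2 of the mutant (0.0598), replicate 1 of the wild type (0.101) or replicate 2 of the wild type (0.327) in the dark, and without replicate 1 (0.138) or 2 (0.245) of the mutant or replicate 1 of the wild type (0.0649) after light. In each case the log2FC remained negative, between −5.16 and −1.91. In S, *vos-1* was near the limit of detection in both strains. The mutant had 0, 1, 2 and 6 reads in replicates 1 to 4, against 5, 1, 13 and 3 reads in the wild type. The groups overlapped, and the difference was not called (log2FC −1.25, SE 0.88, adjusted *P* = 0.512, exact permutation *P* = 0.257). The interval of this log2FC, −3.13 to 0.62, includes the log2FC of both V comparisons.

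*lae-1*, which encodes the LaeA-like methyltransferase, was the gene of the complex with more mRNA in the mutant. In dark V, the mutant had 72.5 and 73.4 CPM, against 7.17 and 6.29 CPM in the wild type, and the log2FC was 3.43 (SE 0.13, adjusted *P* = 2.34e-06), a 10.8-fold difference. After light, it had 41.9 and 37.9 CPM, against 2.85 and 2.65 CPM, with a log2FC of 3.87 (SE 0.14, adjusted *P* = 1.81e-06), a 14.6-fold difference. Both V comparisons passed the DEG threshold. The replicates differed from each other by little in comparison with the gap between the strains, and none of the 4 replicates of either V comparison decided the call.

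In S, the mutant had 23.8, 53.9, 44.9 and 48.4 CPM of *lae-1* in replicates 1 to 4, against 9.55, 10.5, 9.43 and 7.56 CPM in the wild type. The lowest mutant library, replicate 1, was above the highest wild-type library. The log2FC was 2.20 (SE 0.27, adjusted *P* = 0.00177), and the exact permutation test gave *P* = 0.0286. The call held without any of the 8 S libraries (log2FC 2.08 to 2.39). In A15, the mutant had 137 and 150 CPM in the dark, against 19.2 and 23.3 CPM in the wild type, and 101 and 70.7 CPM after light, against 27.6 and 21.1 CPM. The log2FC was 2.75 (SE 0.34, adjusted *P* = 0.0220) in the dark and 1.75 (SE 0.33, adjusted *P* = 0.0301) after light. With 1 library left out in A15, the log2FC remained between 1.46 and 2.88. The call in the dark was then lost without replicate 1 (adjusted *P* = 0.0997) or 2 (0.238) of the wild type. The call after light was lost without any 1 of the 4 libraries (0.0885 to 0.208).

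Over the 4 genes and 5 conditions, 14 of 20 comparisons between the strains were called: 5 for *ve-1*, 5 for *lae-1*, 4 for *vos-1* and 0 for *ve-2*. The 5 calls of *ve-1* are those of the deleted gene and follow from the genotype. DESeq2 gave no adjusted *P* value for *ve-1* in S and called 13 of the other 19. With only the groups compared in the edgeR fit, *vos-1* in S was not tested and 13 of 19 were called. The share of all genes called was 9.79% in dark V, 10.3% in light V, 0.655% in S, 3.08% in dark A15 and 4.65% in light A15. The common dispersion of edgeR, a measure of the spread between replicates, was 0.0210 in V, 0.118 over the A15 libraries and 0.153 over those of S and A15. A single fit of all 24 libraries, with a dispersion of 0.115, kept 12 of the 14 calls and lost those of *vos-1* in V (adjusted *P* = 0.291 in the dark and 0.179 after light). For *ve-2*, 1 of the 5 comparisons had an unadjusted *P* value under 0.05 (0.0494, in A15 light), and DESeq2 called none.

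**Figure D2:**
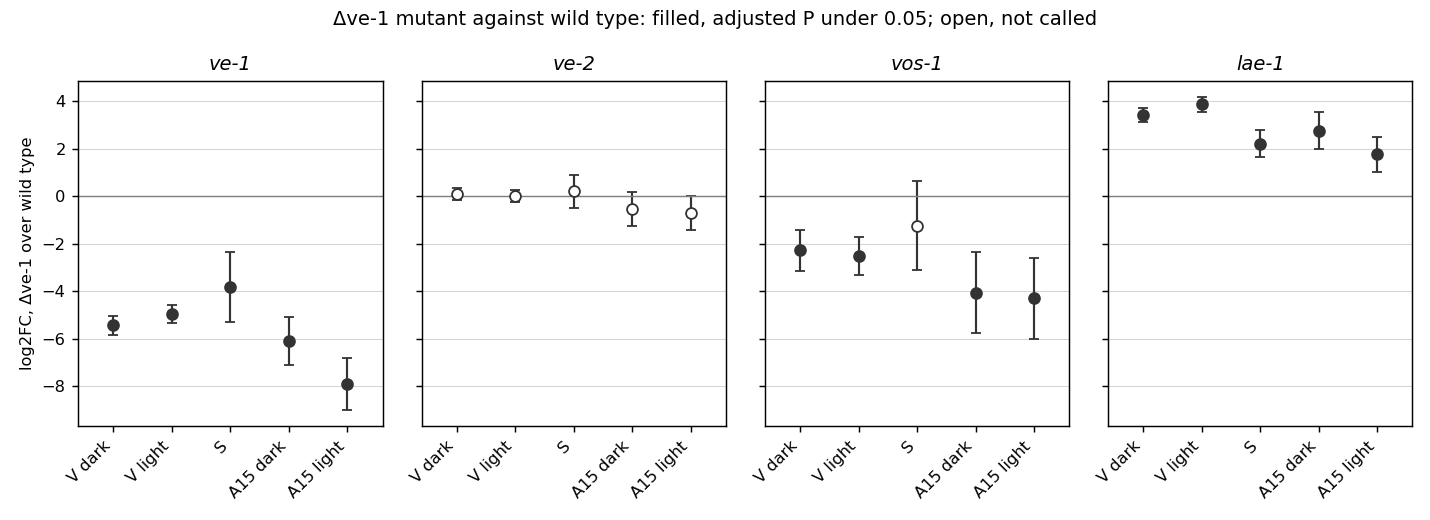
log2FC of the Δ*ve-1* mutant over the wild type for the 4 genes in the 5 conditions, from edgeR, with 95% confidence intervals (filled points, adjusted *P* under 0.05; open points, not called). *lae-1* is above 0 in all 5 conditions (1.75 to 3.87), *vos-1* below 0 with the widest interval in S, and the *ve-2* values lie between −0.71 and 0.21.

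The size of the *lae-1* difference was set against the stage. The log2FC of the mutant over the wild type was larger in dark V than in S by 1.23 (SE 0.39, unadjusted *P* = 0.00480), in a fit of all 24 libraries, but this did not pass the adjustment over all genes (adjusted *P* = 0.969). A difference of the *lae-1* effect between dark V and S was therefore not shown, and the effect in V was not tested against that in A15. For *vos-1*, the same contrast was −1.06 (interval −3.53 to 1.41).

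The response to light was tested in V and in A15, in each strain. In V, *lae-1* mRNA fell after light in both strains, to 41.9 and 37.9 CPM in the mutant in light, against 72.5 and 73.4 CPM in the dark. In the wild type, it was at 2.85 and 2.65 CPM in light, against 7.17 and 6.29 CPM in the dark. The log2FC was −0.86 in the mutant (SE 0.11, adjusted *P* = 0.00118) and −1.30 in the wild type (SE 0.15, adjusted *P* = 0.000533). After light in V, 12.8% of all genes were called in the mutant, against 15.4% in the wild type. The response in the mutant was the smaller by 0.44 (SE 0.19), a difference that was not called (unadjusted *P* = 0.0425, adjusted *P* = 1.00).

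*vos-1* mRNA was higher in light than in dark V in both strains. It was at 5.18 and 6.80 CPM in the mutant in light, against 1.68 and 3.11 CPM in the dark, and at 24.4 and 44.5 CPM in the wild type in light, against 9.91 and 13.8 CPM in the dark. The light and dark libraries of each strain did not overlap. The difference was called in the wild type (log2FC 1.54, SE 0.33, adjusted *P* = 0.0141) and missed the threshold in the mutant (log2FC 1.31, SE 0.39, adjusted *P* = 0.0648). A difference between the strains in this response was not called (−0.23, interval −1.41 to 0.95). The mutant response was called with DESeq2 (adjusted *P* = 0.00330) and by edgeR on only the groups compared (0.0307), and the wild-type call was lost without replicate 1 of dark V (0.112) or replicate 2 of light V (0.0676).

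*ve-1* mRNA was also higher in light in V of the wild type, with 209 and 220 CPM in light against 139 and 137 CPM in the dark (log2FC 0.63, SE 0.14, adjusted *P* = 0.0144). The residual *ve-1* reads of the mutant moved the same way, with 6.79 and 6.92 CPM in light against 2.58 and 3.73 CPM in the dark (log2FC 1.11, SE 0.18, adjusted *P* = 0.00323). The wild-type call was lost without replicate 1 (adjusted *P* = 0.0751) or 2 (0.0854) of dark V or replicate 2 of light V (0.0623), with a log2FC between 0.58 and 0.66 over the 4 libraries left out. *ve-2* mRNA was not called in either strain (log2FC −0.18 in the mutant, interval −0.42 to 0.06, and −0.10 in the wild type, interval −0.34 to 0.15). In all, 5 of 8 comparisons of light with dark in V were called for the 4 genes, and none of them in the single fit of all 24 libraries.

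In A15, none of the 4 genes was called after light, and the share of all genes called was 0% in both strains. Without adjustment, 1004 genes were under 0.05 in the mutant, where DESeq2 called 285, against 759 and 222 genes in the wild type, so the number of calls depends on the tool. For the 4 genes, 2 of the 8 comparisons had an unadjusted *P* value under 0.05, those of *lae-1* and *ve-1* in the mutant, and DESeq2 called none. *lae-1* was at 101 and 70.7 CPM in the mutant in light, against 137 and 150 CPM in the dark (log2FC −0.78, SE 0.32, unadjusted *P* = 0.0399, adjusted *P* = 0.383). In the wild type it was at 27.6 and 21.1 CPM in light, against 19.2 and 23.3 CPM in the dark, and these overlapped (log2FC 0.21, SE 0.32). *vos-1* was at 0.878 and 0.337 CPM in the mutant in light, against 0.510 and 0.758 CPM in the dark, and in the wild type at 18.6 and 4.88 CPM in light, against 8.60 and 12.6 CPM in the dark, and these overlapped in both strains. The *ve-1* libraries of the wild type did not overlap, with 175 and 210 CPM in light against 139 and 156 CPM in the dark, but the log2FC of 0.40 was not called (adjusted *P* = 0.804).

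**Figure D3:**
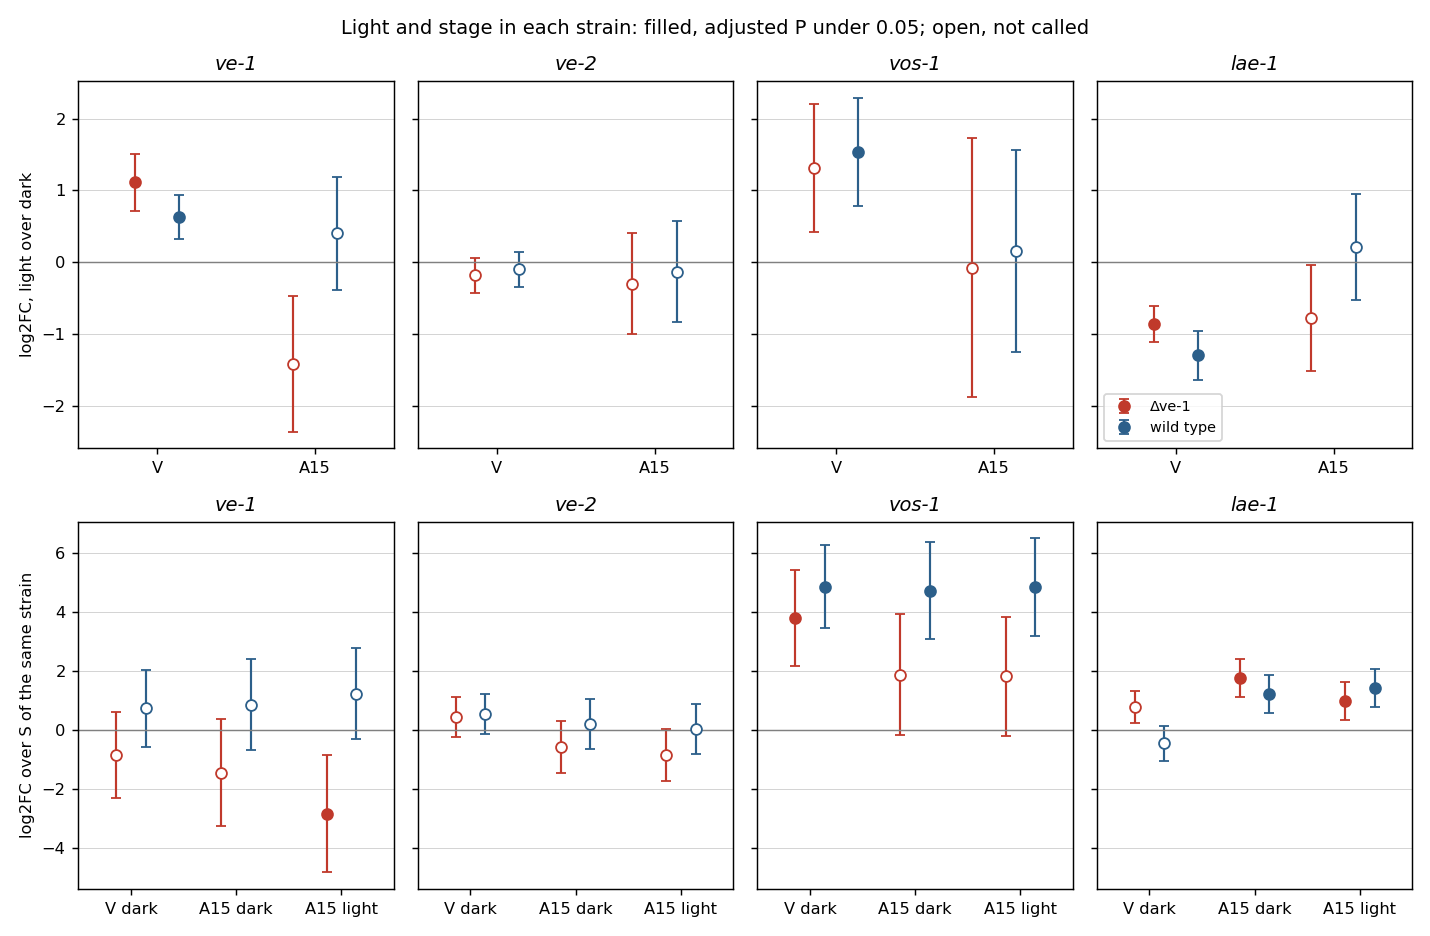
Top, log2FC of light over dark in V and A15. Bottom, log2FC of dark V, dark A15 and light A15 over S of the same strain. Points are edgeR estimates with 95% confidence intervals (Δ*ve-1* in red to the left of the wild type in blue; filled, adjusted *P* under 0.05; open, not called). Light lowered *lae-1* in V of both strains, and *vos-1* was 4.71 to 4.85 above S in the wild type in dark V and in A15.

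Conidiation was followed by comparing A15 with S in each strain. The share of all genes called was large here, 44.3% in the mutant for dark A15, against 27% in the wild type, and 45.8% for light A15, against 32.8%. In the wild type, *vos-1* had the largest log2FC of the 4 genes in both comparisons. It was at 8.60 and 12.6 CPM in dark A15 and 18.6 and 4.88 CPM in light A15, against a range of 0.0704 to 0.989 CPM in S (median 0.285). The log2FC was 4.71 (SE 0.77, adjusted *P* = 0.000411) for dark A15 and 4.83 (SE 0.77, adjusted *P* = 0.000299) for light A15, both past the DEG threshold. In the mutant, it was at 0.510 and 0.758 CPM in dark A15 and 0.878 and 0.337 CPM in light A15, against 0 to 0.427 CPM in S (median 0.114). Neither difference was called in the mutant (log2FC 1.87, interval −0.17 to 3.92, and 1.81, interval −0.21 to 3.83).

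The rise of *vos-1* in dark A15 was smaller in the mutant than in the wild type (difference −2.84 on the log2 scale, SE 1.33, unadjusted *P* = 0.0497), but this difference did not pass the adjustment (adjusted *P* = 0.393). The mutant comparison was itself called when replicate 4 of the mutant in S, the library with 6 *vos-1* reads, was left out (log2FC 2.92, adjusted *P* = 0.0463 in dark A15, and 2.85, adjusted *P* = 0.0465 in light A15). Since *vos-1* in S rests on 0 to 13 reads per library in either strain, the size of its increase is imprecise.

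*lae-1* rose in A15 over S in both strains. In the mutant, it was at 137 and 150 CPM in dark A15 and 101 and 70.7 CPM in light A15, against 23.8 to 53.9 CPM in S (median 46.6). In the wild type, it was at 19.2 and 23.3 CPM in dark A15 and 27.6 and 21.1 CPM in light A15, against 7.56 to 10.5 CPM in S (median 9.49). No A15 library overlapped with the S libraries of its strain. The log2FC for dark A15 was 1.75 in the mutant (SE 0.30, adjusted *P* = 0.000315) and 1.23 in the wild type (SE 0.30, adjusted *P* = 0.00801). For light A15, it was 0.99 (SE 0.30, adjusted *P* = 0.0144) in the mutant and 1.41 (SE 0.30, adjusted *P* = 0.00262) in the wild type. The difference between the strains in dark A15 was 0.52 (interval −0.42 to 1.46) and was not called. The call in dark A15 of the wild type was lost without its replicate 2 (adjusted *P* = 0.104), and that in light A15 of the mutant without its replicate 1 (0.197) or with only the 2 groups in the fit (0.0741).

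*ve-1* of the wild type was at 139 and 156 CPM in dark A15 and 175 and 210 CPM in light A15, against 69.2 to 94.0 CPM in S. No A15 library overlapped with S, but the differences were not called (log2FC 0.86, adjusted *P* = 0.412, and 1.23, adjusted *P* = 0.212). The SE was 0.72 for each in the fit that included the mutant. With only the 2 wild-type groups in the fit, both differences were called (0.88, adjusted *P* = 0.0288, and 1.25, adjusted *P* = 0.00904). In the mutant, the residual *ve-1* reads were fewer in light A15 than in S (log2FC −2.84, SE 0.93, adjusted *P* = 0.0213). Without replicate 1 of the mutant in S, the library with 215 of these reads, the log2FC was −1.21 and was still called. The call was lost without either mutant library of light A15 (adjusted *P* = 0.113 and 0.127) and with only the 2 groups in the fit (0.0980). *ve-2* was called in none of the 4 comparisons by edgeR (log2FC −0.86 to 0.20, lowest unadjusted *P* = 0.0569) or DESeq2. Of the 16 comparisons of A15 with S, 7 were called. This is within the share of all genes called in these comparisons, 27% to 45.8%.

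The submerged cultures were also compared with each other, as V in the dark against S. Their age and vessel and, by the methods of the study, their temperature differ together and cannot be told apart. Of all genes, 13% were called in the mutant, against 10.6% in the wild type. *vos-1* was called in both strains by edgeR, at 1.68 and 3.11 CPM in V of the mutant against 0 to 0.427 CPM in S (log2FC 3.79, SE 0.77, adjusted *P* = 0.00444), and at 9.91 and 13.8 CPM in V of the wild type against 0.0704 to 0.989 CPM in S (log2FC 4.85, SE 0.67, adjusted *P* = 0.000181). The wild-type difference passed the DEG threshold, so *vos-1* mRNA in S was low relative to submerged mycelia of V as well as to aerial tissue. The mutant call was lost without replicate 2 of dark V (adjusted *P* = 0.0867). *lae-1* was not called by edgeR, with a log2FC of 0.77 in the mutant (SE 0.26, adjusted *P* = 0.0568) and −0.46 in the wild type (SE 0.28, adjusted *P* = 0.311). The mutant difference of *lae-1* was called by DESeq2 (adjusted *P* = 0.0325) and by edgeR without replicate 2 of the mutant in S (0.0353). *ve-1* and *ve-2* were not called in either strain.

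The order of the 10 groups by mean CPM differed from gene to gene. For *ve-1*, the wild type in light V (214 ± 7.86 CPM, SD, n = 2) and light A15 (192 ± 25.0, n = 2) overlapped at the top, followed by dark A15 (147 ± 11.9, n = 2) and dark V (138 ± 1.65, n = 2), which overlapped, and then by S (83.1 ± 10.7, n = 4) and the 5 mutant groups. For *vos-1*, light V of the wild type was highest (34.5 ± 14.2, n = 2). Dark V (11.8 ± 2.73), light A15 (11.7 ± 9.68) and dark A15 (10.6 ± 2.85) of the wild type overlapped with each other. They were followed by light V (5.99 ± 1.15) and dark V (2.39 ± 1.01) of the mutant, and the remaining 4 groups had means under 0.7 CPM.

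For *lae-1*, the 5 mutant groups were above the 5 wild-type groups. Dark A15 of the mutant was highest (144 ± 8.73 CPM, n = 2), light A15 (85.9 ± 21.6, n = 2) overlapped with dark V (73.0 ± 0.664, n = 2), and S (42.8 ± 13.2, n = 4) overlapped with light V (39.9 ± 2.81, n = 2). Among wild-type groups, light A15 (24.3 ± 4.59) and dark A15 (21.2 ± 2.93) overlapped and were above S (9.26 ± 1.23, n = 4), dark V (6.73 ± 0.620) and light V (2.75 ± 0.140), which did not overlap. The highest and lowest *lae-1* groups were thus dark A15 of the mutant and light V of the wild type. *ve-2* had the narrowest range of the 4 genes, with group means between 22.2 CPM in light A15 of the mutant and 53.4 CPM in dark V of the mutant. Below the dark V groups, which did not overlap with each other or with the next group, the replicate ranges of neighbouring groups all overlapped.

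Levels of different genes were compared per kb of gene, with the span of the gene, introns included, as the length, since exon lengths were not used here. In dark V of the wild type, the mean level per kb was 39.1 CPM for *ve-1*, 16.1 for *ve-2*, 4.28 for *vos-1* and 2.20 for *lae-1*. In dark V of the mutant, it was 0.894, 17.2, 0.866 and 23.8 CPM for the genes in the same order, so that *lae-1* had the highest level per kb. In dark A15, *lae-1* was at 46.9 CPM per kb in the mutant, against 6.93 in the wild type, and *ve-2* at 8.60, against 12.4. *ve-1* had the highest level per kb of the 4 genes in all 5 wild-type groups, and *lae-1* or *ve-2* in the mutant groups.

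Read counts of different genes in the same library need no scaling between libraries, and they were used to look at the balance of the mRNAs. The count ratio of *lae-1* to *ve-2* was 4.41 and 6.78 in dark A15 of the mutant, against 0.555 and 0.549 in the wild type. In light A15, it was 4.03 and 3.66 in the mutant, against 0.745 and 0.651. In V, the mutant had 1.34 and 1.40 in the dark, against 0.143 and 0.128 for wild-type libraries, and 0.863 and 0.846 in light, against 0.0628 and 0.0559. The ratios of the strains did not overlap in any of these conditions. In S, the mutant ranged from 0.387 to 2.25 (median 1.36), against 0.193 to 0.489 (median 0.268). Only the mutant ratio of 0.387, that of replicate 1, was within the wild-type range, and the exact permutation test of the log2 ratio gave *P* = 0.0571 over 4 against 4 libraries. Without that library, the exact test gave *P* = 0.0286, the smallest possible with 3 against 4 libraries. In all, 5 exact tests were run in S.

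**Figure D4:**
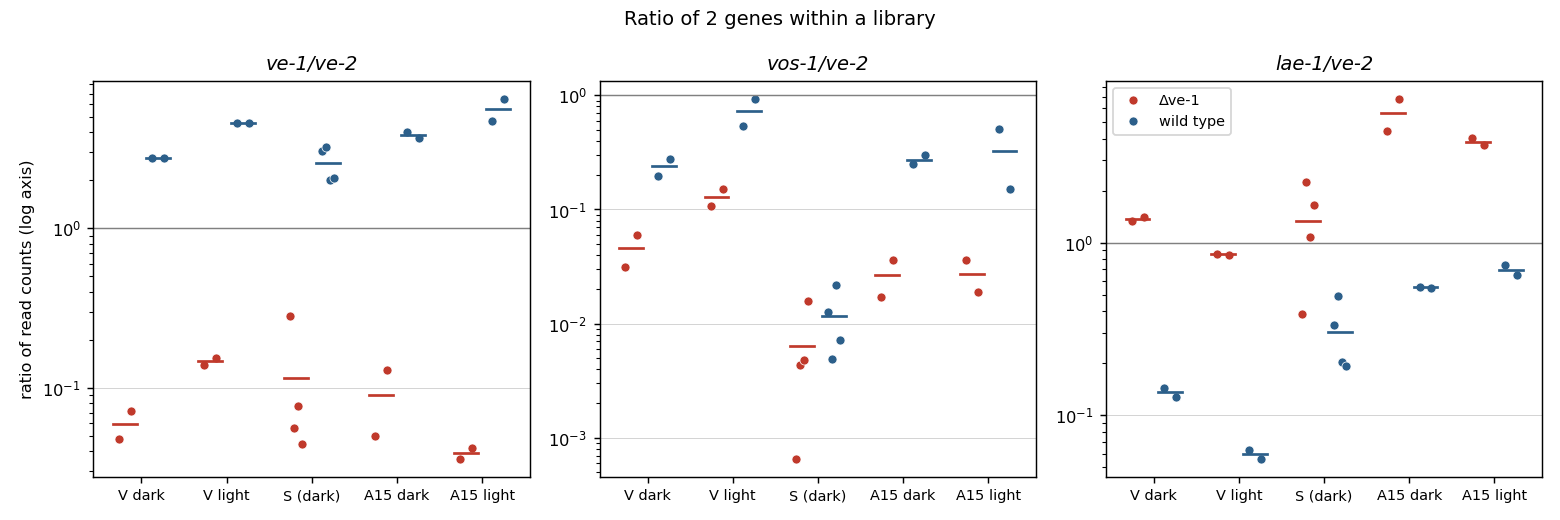
Ratios of the read counts of *ve-1*, *vos-1* and *lae-1* to those of *ve-2* within each library, on log axes that differ between panels, with a count of 0.5 added to both genes (points, libraries; lines, means; Δ*ve-1* in red to the left of the wild type in blue; grey line, equal counts). The mutant ratios of *lae-1* to *ve-2* lie above those of the wild type except for 1 library of S, which is at 0.387.

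The ratio of *vos-1* to *ve-2* went the other way. It was 0.0315 and 0.0596 in dark V of the mutant, against 0.197 and 0.279 for the wild type, and 0.0173 and 0.0359 in dark A15 of the mutant, against 0.250 and 0.298. After light, it was 0.107 and 0.152 in V of the mutant, against 0.534 and 0.928 for the wild type, and 0.0360 and 0.0189 in A15 of the mutant, against 0.502 and 0.151. In S, the ratio was at most 0.0157 in the mutant, against 0.0220 in the wild type, with groups that overlapped. The ratio of *ve-1* to *ve-2* in the wild type was between 2.02 and 3.22 in S and between 4.56 and 6.47 in the light-exposed libraries of V and A15.

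Across the 12 wild-type libraries, the log2 CPM of *ve-1* and *vos-1* had a Pearson correlation of 0.918, and those of *ve-1* and *lae-1* one of −0.10. Over all 24 libraries, *lae-1* correlated with *ve-2* at −0.37 and with *vos-1* at −0.42. These libraries share strains, stages and replicates, and the values are descriptions only. The genes with the profile most like that of *ve-1* in the 12 wild-type libraries were *sub-1* (NCU01154, *r* = 0.984), NCU04615 (0.957) and *hsf-2* (NCU08480, 0.949), of 8265 genes. Over all 24 libraries, those most like *ve-2* were NCU00154 (0.925), NCU08345 (0.896) and NCU02688 (0.894). For *vos-1*, they were NCU02875 (0.940), NCU11291 (0.934) and NCU09267 (0.928). For *lae-1*, the values were lower, at 0.891 for NCU01032, 0.866 for NCU10075 and 0.825 for NCU08783.

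Other genes were taken from lists of functions close to the velvet complex. Of 11 methyltransferase genes named in the study, 10 had a row in the counts and 9 were tested. They are LaeA-like except for NCU05855, which the study gives as an *O*-methyltransferase type. The study described 7 of them, and *lae-1*, by their change in these libraries, and the other 4 as targets of the transcription factor VIB-1. For the 7 and *lae-1*, the number called and the direction and size of the change are therefore not independent evidence. By edgeR, in dark V, 3 of the 9 tested genes were higher and 5 lower in the mutant than in the wild type, and in light V 2 and 4. In S, dark A15 and light A15, it was 2 higher and 1 lower each time. DESeq2 called 6 in dark A15 and 5 in light A15, where 6 had an unadjusted *P* value under 0.05 in each. Of all genes, edgeR called 9.79% in dark V, 10.3% in light V, 0.655% in S, 3.08% in dark A15 and 4.65% in light A15. The median log2FC of the 9 genes in a condition was between −1.17 and −0.44, against −0.03 to 0.07 for all genes. NCU10761 was higher in all 5 conditions (log2FC 5.11 to 6.39), as was NCU10101, which had 0 to 10 reads in wild-type libraries and 25 to 2213 in mutant libraries. NCU05855 was lower in V, at 0.239 and 0.240 CPM in the dark in the mutant against 35.8 and 39.4 CPM in the wild type. It was also called lower in light A15 (log2FC −10.7, adjusted *P* = 0.0433), with 0 reads in the mutant libraries against 27 to 444 in the wild type. NCU05832 was lower in V in both light conditions and in S (log2FC −1.84, −1.46 and −3.41). *lae-1* was not the only gene of this kind with more mRNA in the mutant, as the study describes for NCU10101 and NCU10761. In V, more of the 9 genes were called lower than higher. The study named 5 of them as lower and 2 as higher, so this count says nothing further about such genes.

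Light and clock genes and regulators of conidiation were examined in the same way, against the same shares of all genes called between the strains. These were 9.79% in dark V, 10.3% in light V, 0.655% in S, 3.08% in dark A15 and 4.65% in light A15. Of 7 light and clock genes (*wc-1*, *wc-2*, *vvd*, *phy-1*, *phy-2*, *cry* and *frq*), none was called between the strains by edgeR in any of the 5 conditions. Of these 35 comparisons, 5 had an unadjusted *P* value under 0.05, and DESeq2 called 3. In V, 4 of them rose after light in both strains (*vvd*, *cry*, *frq* and *wc-1*, the gene of the blue-light photoreceptor), with log2FC of 2.36 to 8.17 in the mutant, against 2.05 to 8.06 in the wild type. Of all genes, light in V called 12.8% in the mutant, against 15.4% in the wild type. Of 6 regulators of conidiation (*fl*, *vib-1*, *csp-1*, *csp-2*, *acon-3* and *rca-1*), *acon-3* was called higher in dark V of the mutant by edgeR (log2FC 0.64), though not by DESeq2, and *fl*, for the major activator of conidiation, lower in light V (log2FC −0.55). None was called in S by edgeR or DESeq2, 2 having an unadjusted *P* value under 0.05, and edgeR called 1 lower in each A15 condition. In dark A15, 5 had an unadjusted *P* value under 0.05 and DESeq2 called 4. The other 5 had a log2FC of 1.31 to 2.07 there, not called by edgeR (adjusted *P* = 0.124 to 0.277). The gene called lower in A15 was *vib-1*, for a transcription factor known from heterokaryon incompatibility, with 27.4 to 38.7 CPM in dark A15 of the mutant against 148 to 183 CPM in the wild type (log2FC −2.33, adjusted *P* = 0.0366), and 14.7 to 14.9 CPM in light A15 against 80.2 to 179 CPM (log2FC −3.19, adjusted *P* = 0.0214). In dark A15 against S, 5 of the 6 rose in each strain, where 44.3% of all genes were called in the mutant, against 27% in the wild type.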

How the data were processed

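The authors mapped single-end reads of poly(A)-selected RNA to the OR74A genome (NC12) with TopHat2 2.11 and counted them over the exons of merged transcripts with SeqMonk, set for reads of the opposite strand. They deposited raw counts for 9758 genes in 24 libraries, without normalization, which were checked to be whole numbers. No column was left unmapped. Gene identifiers were matched to a reference table (9757 of 9758). Sequences were not used here.

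Counts were analyzed with edgeR 4.0.16 in R 4.3.3 after TMM scaling and removal of genes with low counts (filterByExpr, minimum count 10). Group means were fitted, without a block, with the quasi-likelihood method to the 8 V libraries (7760 genes), the 8 A15 libraries (8193 genes), the 16 S and A15 libraries (8239 genes, for S and for A15 against S) or all 24 (8269 genes, for V against S). Adjusted *P* values are those of Benjamini and Hochberg over all genes of a fit. Log2 CPM used a prior count of 2, and ratios a count of 0.5 added to both genes. The named genes were the 4 genes in every comparison, the 3 genes with the most similar profile and genes of the lists. Of the methyltransferase genes, at most 4 called in most comparisons of the strains were named. NCU05501, called lower in dark V, light V and dark A15, was left out by this limit. NCU00541 was added as a gene listed by the study but not called here. In the other lists no gene was called in most comparisons of the strains, and those named were called in a comparison described. The fits were tested on simulated data. The genes and lists were chosen with earlier results of these data known. The alternatives were RLE or library-size scaling, no filter, removal of *eas* reads, DESeq2 1.42.0, other sets of libraries, replicate blocks, the DEG threshold, ratios within a library and each replicate left out in turn, in 44 fits. With 1 library left in a group, its spread was assumed to be that of the other groups.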

Additional observations from a re-analysis of the deposited data

Results flagged for a closer look

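In S, *ve-1* was at 17.4 CPM in replicate 1 of the mutant, far from the 1.28 to 3.18 CPM of the other 3 replicates. On the CPM scale, the gap was 0.882 of the range of the group, above Dixon's critical value for 4 samples. It was the only one of 14 groups of 4 values examined in S (the 4 genes in CPM and 3 log2 ratios in each strain) that was so marked, and chance marks about 1 in 20. The log2 ratio of *ve-1* to *ve-2* in the same group was not marked, and log2 CPM was not examined in this way. After light in A15, the *ve-1* libraries of the mutant lay below those in the dark (log2FC −1.42, on 14 and 17 reads in light against 27 and 41 in the dark), whereas those of the wild type lay above (log2FC 0.40). The difference between the strains was −1.82 (SE 0.54, unadjusted *P* = 0.00898) and did not pass the adjustment over all genes (adjusted *P* = 1.00). The decrease in the mutant was called only without replicate 1 of dark A15 (log2FC −1.81, adjusted *P* = 0.0262). What these differences come from was not tested.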

How the results depend on the processing

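Over the alternatives that kept all replicates, 491 of 516 results of the 4 genes stayed on their side of the threshold, 12 lost a call and 13 gained one, and no called log2FC changed sign. With 1 replicate left out, 274 of 304 stayed, 26 lost and 4 gained a call. Between the strains, the single fit of all 24 libraries gave *vos-1* −2.29 in dark V and −2.52 in light V without a call, and *ve-1* in S was at −3.92 without a call when S was fitted alone. The causes were not tested. Over all replicates left out in turn, the log2FC of results that lost a call at least once ranged from −2.82 to −1.91 for *vos-1* in dark V, −4.41 to −3.79 in dark A15 and −5.16 to −3.06 in light A15. For *ve-1* it ranged from −5.45 to −3.48 in S and −6.63 to −5.71 in dark A15, and for *lae-1* from 2.63 to 2.88 in dark A15 and 1.46 to 2.001 in light A15. In S, the log2 ratio of *lae-1* to *ve-2* differed by 1.98 (exact permutation *P* = 0.0571) and, without replicate 1 of the mutant, an alternative chosen after seeing the data, by 2.49 (exact *P* = 0.0286).

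By the DEG threshold, 5 of 20 comparisons of the strains were called instead of 14, 0 of 16 of light instead of 5, 2 of 16 of A15 with S instead of 7 and 1 of 8 of V with S instead of 2. The single fit of all 24 libraries called 0 for light, and the fits of only the groups compared called 1 for V with S. Among the strain comparisons, the DEG threshold was met by *ve-1*, the deleted gene, and *lae-1*. Of all genes, 53 of 7760 met it between the strains in dark V and 47 in light V. In S it was 1 of 8239, and in A15 0 of 8193 in the dark and 2 after light. For A15 with S it was 500 to 1169 of 8239 genes, and for V with S 57 and 64 of 8269. The replicate numbers were not taken to pair the samples: the correlation of deviations between same-numbered libraries of the strains was −0.385 to 0.650 in S and 0.0807 to 0.164 in A15. In V it was 0.369 to 0.472, but over 2 numbers only, and no source says that they mark a shared culture or day. With the replicate block by title number, 14 of 20 comparisons of the strains were called, as without it (*lae-1* in dark V was at 3.43), and 9 instead of 7 of A15 with S. The additional calls were those of *vos-1* in the mutant, at 3.20 (adjusted *P* = 0.0279) in dark A15 and 3.02 (0.0313) in light A15. With the block by library code, *vos-1* was called in dark A15 of the mutant (3.04, 0.0197) and *ve-1* was no longer called in light A15 of the mutant (−2.05, 0.108). Both blocks called the light response of *vos-1* in V of the mutant (1.34, 6.82e-05). Counts of genes called between the strains that changed by over 1.5 times were, in dark V, 1988 with the block and 39 in the single fit of all 24 libraries (760 otherwise), and in light V 1874 and 36 (798 otherwise). In S they were 405 with DESeq2, 446 in the single fit and 11 with S alone (54 otherwise). In dark A15 they were 851 with DESeq2 and 467 in the single fit (252 otherwise), and in light A15 1044, 703 and, with only the groups compared, 694 (381 otherwise). For light in V, the block gave 1833 in the mutant, against 2025 in the wild type, and the single fit 98, against 138 (994 and 1193 otherwise). For light in A15, the count of 0 became 1 to 285 in the mutant under 4 alternatives and 5 to 222 in the wild type under 5, and stayed 0 under the others. With only the groups compared, 2241 genes differed between dark A15 and S in the mutant (3651 otherwise), and 188 and 549 between V and S in the mutant and the wild type (1073 and 876 otherwise), against 1867 and 1582 with the block. With 2 libraries per group outside S, precision is limited by replicates, and for *vos-1* in S and in mutant A15 by read number.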
